A study of Mus musculus with 90 samples.

Results

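Sirtuins remove acyl groups from proteins and use up NAD as they do so, which ties them to the supply of NAD in the cell. The genes described here are the 7 mouse sirtuins, Sirt1 to Sirt7, together with 3 enzymes that make NAD or clear its precursor, Nampt, Nmnat1 and Nnmt. They were taken by gene symbol from the deposited liver count tables and make up 10 of the 27654 genes listed. The study dealt with the part of the hepatocyte glucocorticoid receptor (GR) in the response of the liver to calorie restriction. Livers were collected around the clock from mice with and without the receptor in hepatocytes, on each of 2 diets. Further livers were collected at ZT12, the hour of lights off, after calorie restriction or after corticosterone.

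All mice were adult male C57BL/6J mice fed chow. In the time series, WT mice carried the genotype GRfl/fl, in which both copies of the GR gene Nr3c1 are floxed and no Cre is present. GRLKO mice were GRfl/fl x Alb-Cre, in which the albumin promoter drives Cre and so deletes the receptor in hepatocytes, while other liver cells keep it. Control mice carry the label of night restricted feeding, which by the study's methods covered the last week after free access to food, and calorie-restricted mice had night feeding with intake lowered by steps to 40% fewer calories. The ZT12 diet experiment and the corticosterone experiment used mice with the genotype label WT. In the ZT12 diet experiment the control libraries are titled AL but carry the treatment label of night restricted feeding, and they are called control here. Corticosterone mice and their vehicle-injected controls carry the label of night feeding too, and the label of those controls names the feeding alone.

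Poly(A) RNA from whole liver was sequenced in 90 libraries that fall into 28 groups. The calorie-restricted time series had 3 libraries per genotype at each of 6 times, 4 h apart, 36 in all. The control time series had 42 libraries, with 3 per genotype at ZT0 and ZT4, 4 per genotype at ZT8 and ZT12, and 4 WT and 3 GRLKO at ZT16 and at ZT20. The ZT12 diet and corticosterone experiments had 3 libraries per group. The total count per library was 14235473 to 20788575 in the calorie-restricted series and 10057544 to 17089004 in the control series. It was 36442195 to 39492146 in the ZT12 diet experiment and 13739631 to 16077943 in the corticosterone experiment. Each diet of the time series has its own count table and its own run of library numbers, so diet and anything else that differs between these sets of libraries cannot be told apart there. Genotypes were therefore compared within a diet, and the diets were compared directly in the ZT12 diet experiment.

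Most NAD in the body is recycled. Nampt makes nicotinamide mononucleotide from the nicotinamide that sirtuins release, and Nmnat enzymes turn it into NAD. Nnmt methylates nicotinamide, which takes it out of this cycle, and it is abundant in liver, where NAD can also be made anew from tryptophan. In liver, Nampt is under clock control, and sirtuins act on enzymes and regulators of fasting metabolism.

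Values are CPM, estimated counts divided by the TMM-scaled library size and put on a common scale within each table, and fold changes are log2. A gene was called when its p, adjusted by Benjamini-Hochberg over all genes tested, was below 0.05. Adjusted p values of group comparisons are from edgeR's quasi-likelihood test unless another tool is named. In parentheses a log2 fold change is followed by its adjusted p, and a lone value for a result without a library is its adjusted p. CPM is not corrected for gene length, so levels are compared between samples and never between genes. In whole liver, fewer cells of a type and less RNA per cell cannot be told apart.

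The labels were checked on the deleted gene and on cell type markers. At ZT12 on calorie restriction, Nr3c1 was at 102, 98.0 and 104 CPM in WT and 31.0, 32.2 and 30.8 CPM in GRLKO. On control diet at ZT12 it was at 83.3, 87.9, 75.5 and 89.1 CPM in WT and 18.7, 20.9, 20.4 and 25.2 CPM in GRLKO. No GRLKO library came near a WT library, and Nr3c1 fell in all 12 genotype comparisons, by 1.70 to 2.06 on the log2 scale. Fkbp5 and Tsc22d3, classical glucocorticoid target genes, fell in GRLKO at ZT12 on calorie restriction (log2 fold changes -2.84 and -1.86, edgeR adjusted p = 0.000144 and 0.000272). They fell on control diet as well (-2.29 and -1.51, adjusted p = 0.00224 and 0.0115). Both rose with corticosterone (2.63 and 1.48, adjusted p = 0.00797 and 0.00141) and with calorie restriction in WT at ZT12 (2.36 and 1.92, adjusted p = 0.00049 and 0.00125). Averaged over the day, the genotype difference of Fkbp5 was larger on calorie restriction (interaction -0.54, edgeR adjusted p = 0.0421). The 7 hepatocyte markers, of which Alb was the most abundant, were above 0 in every library and summed to 71291 to 181420 CPM.

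Over the 90 libraries, the lowest, median and highest levels were 33.1, 97.5 and 252 CPM for Nampt, and 14.4, 69.6 and 240 CPM for Nnmt. Nmnat1, the nuclear enzyme that completes NAD, ranged from 10.5 to 24.2 CPM with a median of 15.6. These spans pool 4 count tables, each put on its own scale. They were wide for Nampt and Nnmt and less wide for Nmnat1. Among the nuclear sirtuins, Sirt1 spanned 7.45, 12.1 and 31.3 CPM, Sirt6 1.19, 2.95 and 4.54, and Sirt7 28.4, 45.5 and 62.3 (lowest, median and highest). Cytosolic Sirt2 spanned 35.7, 46.5 and 56.6 CPM. Of the mitochondrial sirtuins, Sirt3 spanned 47.1, 75.5 and 135 CPM and Sirt4 4.44, 7.81 and 11.8.

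Sirt5, the mitochondrial enzyme that removes succinyl and malonyl groups, is listed at 0 in 84 of the 90 libraries. A count of 0 allows up to 3 counts, which is 0.0749 to 0.299 CPM in these libraries, for counting error only. It was above 0 in 6 libraries, each in another group, with 13.3 to 91.9 estimated counts. On calorie restriction these were WT at ZT8 (3.20 CPM, replicate 2), GRLKO at ZT8 (1.49 CPM, replicate 2) and GRLKO at ZT16 (0.751 CPM, replicate 1). The others were control GRLKO at ZT12 (1.20 CPM, replicate 3), control WT at ZT16 (6.59 CPM, replicate 4) and a corticosterone liver (6.45 CPM, replicate 1). The replicates of these livers were at 0, as were the 6 deepest libraries, those of the ZT12 diet experiment. Whether they arise in the assignment of reads to transcripts was not tested, and they are not read as absence of Sirt5 RNA. Sirt5 passed the filter on low counts in the day average on calorie restriction, the day interaction and the rhythm comparison of the genotypes on calorie restriction alone, and entered the 4 JTK_CYCLE tests, which kept every gene above 0 in any library. It was not called in any of these, and its few values allow no fold change to be given. In the other group comparisons 9 of the 10 members were tested.

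Calorie restriction was compared with control feeding in WT livers at ZT12, just before the daily meal. Sirt1, Nampt and Nnmt rose and Sirt4 and Sirt7 fell, so edgeR called 5 of the 9 members tested, where it called 47.1% of all genes tested (3073 up and 3082 down). At an unadjusted p under 0.05 there were 7 members. The median fold change was 0.10 over the members and -0.00 over all genes tested. The groups did not overlap (separated, below) for 8 of 9 members, against 59.0% of all genes, where chance gives 10% for 3 against 3 livers.

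Nampt, the rate-limiting enzyme of NAD recycling, was at 154, 144 and 131 CPM in control livers and 178, 192 and 195 CPM in calorie-restricted livers. All 3 restricted livers lay above all 3 controls (log2 fold change 0.39, SE 0.09, edgeR adjusted p = 0.00868). Nnmt was at 22.1, 47.9 and 57.2 CPM in control and 107, 156 and 184 CPM in calorie-restricted livers. Again the groups did not overlap, although both spread widely, with control replicate 1 the lowest (1.81, SE 0.35, adjusted p = 0.00544). Nmnat1 overlapped between the diets, at 13.8, 12.3 and 15.6 CPM in control and 12.5, 13.1 and 14.2 CPM in restricted livers (-0.06, adjusted p = 0.656).

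Sirt1, the deacetylase of nuclear regulators such as Ppargc1a and Foxo1, was at 14.4, 13.1 and 15.3 CPM in control and 22.0, 26.0 and 30.0 CPM in calorie-restricted livers. Every restricted liver was above every control (0.86, SE 0.13, edgeR adjusted p = 0.00176). Sirt7, which acts on ribosomal gene chromatin in the nucleolus, was at 43.6, 39.2 and 40.5 CPM in control and 33.0, 33.8 and 35.8 CPM in restricted livers. The groups did not overlap (-0.27, SE 0.07, adjusted p = 0.019), but the call was lost without control replicate 1 (0.0683) or without restricted replicate 2 (0.0689), within a range of 0.0253 to 0.0689. Sirt4, which holds back glutamate dehydrogenase in mitochondria, was at 7.16, 6.69 and 7.08 CPM in control and 4.44, 4.76 and 5.40 CPM in restricted livers. It fell by 0.52 on the log2 scale (SE 0.12, adjusted p = 0.00974), with no overlap.

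Sirt6, a deacetylase of chromatin, was at 3.24, 3.5 and 2.96 CPM in control and 2.79, 2.03 and 1.72 CPM in restricted livers, separated but not called (-0.57, SE 0.21, edgeR adjusted p = 0.0568). Sirt2, a cytosolic deacetylase, was at 45.2, 45.2 and 47.0 against 48.4, 51.9 and 54.9 CPM, also separated and not called (0.17, SE 0.07, adjusted p = 0.0776). Without restricted replicate 1, Sirt6 (-0.78, adjusted p = 0.0127) and Sirt2 (adjusted p = 0.027) passed. Sirt3, the main deacetylase of mitochondria, was at 85.7, 81.7 and 85.8 CPM in control and 91.6, 88.8 and 90.5 CPM in restricted livers (0.10, SE 0.06, adjusted p = 0.226). The groups did not overlap, by a narrow margin.

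The WT livers at ZT12 in the time series carry the same contrast, with each diet in its own set of libraries. There, Nnmt was at 132, 161 and 190 CPM on calorie restriction and 81.1, 119, 129 and 143 CPM on control diet, which overlapped (0.42, edgeR adjusted p = 0.126). Nampt was at 212, 252 and 205 CPM on calorie restriction and 121, 180, 135 and 206 CPM on control diet, with an overlap at the top of the control group (0.45, adjusted p = 0.0894). Neither enzyme was called in those libraries. Sirt1 (0.86, adjusted p = 0.00226), Sirt4 (-0.67, adjusted p = 0.00954) and Sirt7 (-0.73, adjusted p = 0.00324) passed in the same direction as in the ZT12 experiment. Sirt3 (0.33, adjusted p = 0.00487) and Sirt6 (-1.11, adjusted p = 0.0175) passed as well. The fold change of Nnmt in the time series was thus far below the 1.81 of the ZT12 experiment, and that of Sirt7 exceeded the -0.27.

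Markers of other liver cells were read in the same livers of the ZT12 experiment, each list against the 47.1% of all genes called. Of the endothelial markers, 4 of 6 rose (median 0.54), and their sum was 116, 149 and 153 CPM in control and 194, 194 and 222 CPM in restricted livers, with Kdr or Clec4g on top and no gene at 0. Of the hepatocyte markers, 3 of 7 rose (median 0.24), with sums of 92075, 95109 and 98453 CPM against 163210, 164640 and 165760 CPM and Alb on top. Of the cholangiocyte markers tested, 2 of 4 rose. In the Kupffer and myeloid list 1 of 8 fell, in the stellate list 1 rose and 1 fell of 6, and in the lymphocyte list 1 of 4 tested fell. Their part in the members' results was not tested.

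The other genes of NAD metabolism were read by list, each against the 47.1% of all genes called. In the salvage list, 3 of 6 tested fell (median -0.60). These were Nmnat3, a mitochondrial NAD synthase (-2.0, edgeR adjusted p = 0.000315), Nmrk1, a nicotinamide riboside kinase (-0.97, 0.0105), and Naprt, which starts NAD synthesis from nicotinic acid (-0.23, 0.0433). Mean Nmnat3 was 8.16 CPM in control and 2.05 CPM in restricted livers. Naprt stayed called only without restricted replicate 1. Its adjusted p was 0.14, 0.0587 and 0.093 without control replicates 1, 2 and 3, and 0.0921 and 0.123 without restricted replicates 2 and 3. Nmrk1 had the other sign in the WT libraries of the time series (0.42, adjusted p = 0.118).

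Of the 8 genes that make NAD from tryptophan, 2 rose and 1 fell (median 0.08). Tdo2, which opens the tryptophan path, rose (0.49, edgeR adjusted p = 0.00493; means 971 and 1367 CPM in control and restricted livers). Acmsd, which diverts an intermediate away from NAD, rose (2.19, adjusted p = 0.000561; means 9.97 and 45.5 CPM). Qprt, which acts at a later step on the way to NAD, fell (-1.07, adjusted p = 0.000302; means 173 and 82.8 CPM). So the gene on the NAD branch and the gene on the diverting branch moved in opposite directions.

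Among NAD consumers other than sirtuins, 2 of 8 rose and 2 fell (median -0.26). Parp3 (-1.5, edgeR adjusted p = 0.000129) and Parp1 (-0.44, 0.0044), polymerases of ADP-ribose, fell, while the tankyrase Tnks2 (0.45, 0.00148) and the glycohydrolase Cd38 (0.43, 0.0324) rose. Cd38 was not called without control replicate 1 (0.1) or 2 (0.105), or without restricted replicate 2 (0.101) or 3 (0.0828). In the list of NAD kinases and transporters, 3 of 5 rose (median 0.40). These were Slc25a51, the mitochondrial NAD carrier (1.39, 0.00133; means 93.2 and 245 CPM), the transhydrogenase gene Nnt (0.81, 0.0133), and the NAD kinase Nadk (0.40, 0.00561). For Nnt this is a level of RNA and not of a working enzyme. Nnt was not called without control replicate 2 (0.0516).

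Of the 3 other genes that clear nicotinamide products, the aldehyde oxidases Aox3 (-2.03, edgeR adjusted p = 0.000276; means 284 and 69.9 CPM) and Aox1 (-0.88, 0.00332) fell (list median -0.88). Ccar2, which inhibits Sirt1 protein, fell (-0.76, 0.00289), 1 of the 2 Sirt1 regulators listed (median -0.31). Of 9 sirtuin substrates tested, 5 rose (median 0.64), led by Ppargc1a (1.94, 6.4e-05) and Cps1, the urea cycle enzyme acted on by Sirt5 (1.06, 0.00245). Of 12 clock genes tested, 6 rose and 4 fell (median 0.33). Arntl (4.57, adjusted p = 0.00141) and Clock (3.21, 0.0164) were highest and Dbp (-3.22, 5.05e-05) and Nr1d1 (-2.13, 0.00169) lowest. Clock was not called without control replicate 1 (0.0626).

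**Figure D1:**
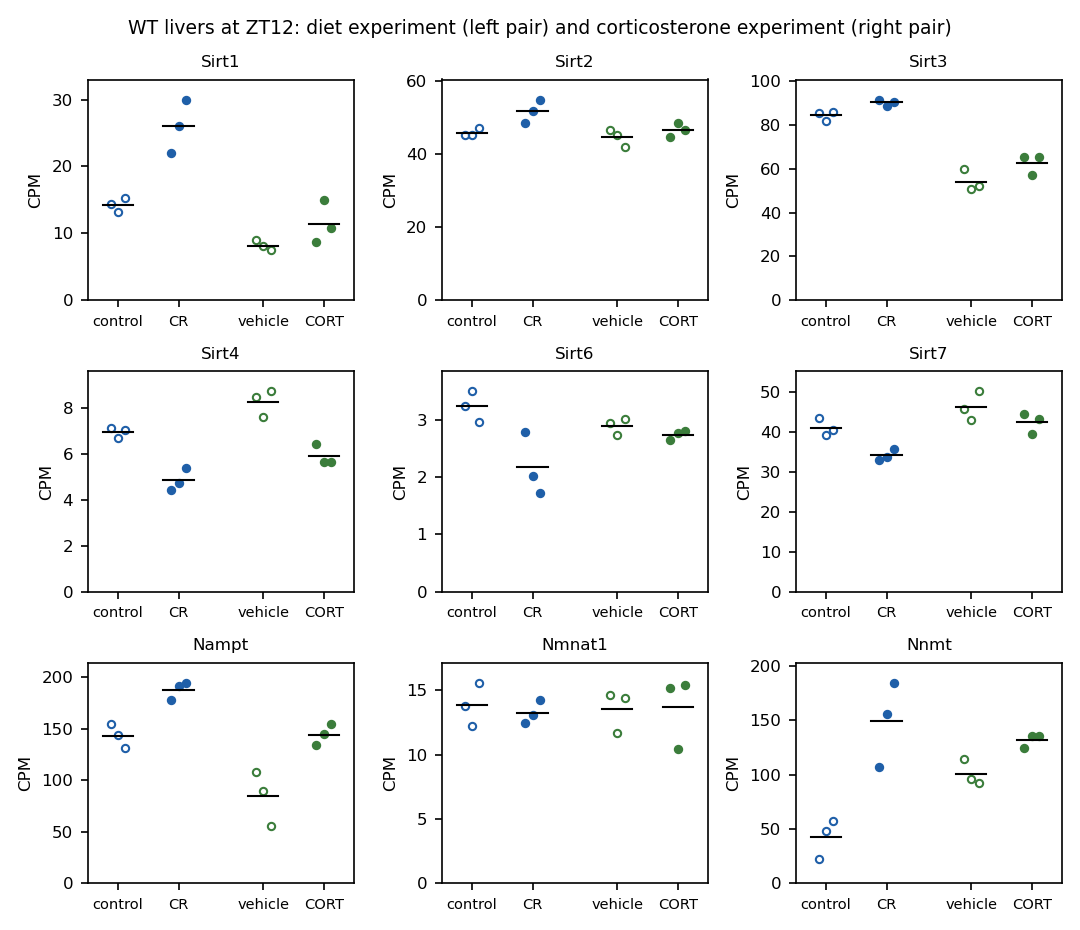
Levels of the 9 members other than Sirt5 at ZT12 in WT livers, in CPM on the vertical axis, for control (open) and calorie-restricted (filled) livers and for vehicle (open) and corticosterone (filled) livers. Points are libraries and bars are group means. Calorie-restricted livers sit at 22.0 to 30.0 CPM for Sirt1 and 107 to 184 CPM for Nnmt, above the control livers at 13.1 to 15.3 and 22.1 to 57.2 CPM.

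Corticosterone was compared with vehicle at the same hour to see which of these genes the hormone moves without a change of diet. No member passed: edgeR called 0 of 9 (3 at an unadjusted p under 0.05), where 8.11% of all genes tested were called. DESeq2 called 2, Nampt (adjusted p = 0.00604) and Nnmt (0.0279). The 8.11% is edgeR's share, and that of DESeq2 is not given. The groups were separated for 3 of 9 members, against 32.8% of all genes and 10% by chance.

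Nampt was at 108, 90.0 and 56.2 CPM in vehicle and 134, 145 and 154 CPM in corticosterone livers. The groups did not overlap, with vehicle replicate 3 the lowest (0.77, SE 0.22, edgeR adjusted p = 0.0764). Nnmt was at 115, 95.6 and 92.4 CPM in vehicle and 124, 135 and 136 CPM in corticosterone livers, every treated liver above every vehicle liver (0.38, SE 0.11, adjusted p = 0.0726). Sirt4 was at 8.48, 7.64 and 8.75 CPM in vehicle and 6.45, 5.67 and 5.68 CPM in treated livers, again without overlap (-0.49, SE 0.14, adjusted p = 0.0855). Sirt1 overlapped, at 8.92, 8.08 and 7.45 CPM in vehicle and 8.72, 14.9 and 10.7 CPM in treated livers, with treated replicate 2 the highest (0.49, adjusted p = 0.193). The other members had log2 fold changes from -0.13 (Sirt7) to 0.21 (Sirt3). Leaving out each library in turn gave edgeR adjusted p values of 0.0648 to 0.184 for Nampt and 0.0623 to 0.227 for Nnmt.

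Of the genes that make NAD from tryptophan, Tdo2 rose (0.61, edgeR adjusted p = 0.0371) and Ido2, which opens the same path, fell (-0.71, 0.0243), 2 of 8 (median -0.03). Slc25a51 rose, 1 of 5 in the kinase and transport list (1.67, 0.00288; means 68.0 and 217 CPM in vehicle and treated livers). Of 9 substrates tested, Foxo1, a regulator of fasting genes, rose (1.29, 0.00303) and the mitochondrial dismutase Sod2 fell (-0.37, 0.0298). Of 12 clock genes, Per1 (2.04, 0.00247) and Cry2 (0.68, 0.0215) rose. Tdo2, Ido2 and Sod2 each lost the call without vehicle replicate 1 (0.0744, 0.0723 and 0.0965), 2 (0.141, 0.072 and 0.124) or 3 (0.115, 0.0766 and 0.0644). The same 3 genes lost it without treated replicate 1 (0.109, 0.0588 and 0.102), as did Tdo2 without treated replicate 2 (0.0597) and Ido2 and Sod2 without treated replicate 3 (0.0753 and 0.0977). Cry2 lost it without treated replicate 1 (0.0658) or vehicle replicate 2 (0.0972) or 3 (0.0729). In the salvage, consumer, clearance and Sirt1 regulator lists no gene passed in edgeR, with 0, 3, 0 and 1 genes at an unadjusted p under 0.05. DESeq2 was not counted for these lists.

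Of the Kupffer and myeloid markers 2 of 8 rose after corticosterone (median 0.57), with sums of 80.4, 103 and 110 CPM in vehicle and 114, 164 and 140 CPM in treated livers, Clec4f on top and no gene at 0. Of all genes tested, 8.11% were called. Of the hepatocyte list 1 of 7 rose, and 1 gene fell in each of the endothelial, stellate and cholangiocyte lists. Their part in the members' values was not tested.

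Around the clock, Nampt had the widest daily swing of the 9 members other than Sirt5 in WT livers on either diet. On calorie restriction it was at 49.0, 41.5 and 44.2 CPM at ZT0, 95.8, 69.9 and 51.2 at ZT4, and 143, 159 and 139 at ZT8. It then reached 212, 252 and 205 CPM at ZT12, and was at 117, 124 and 131 at ZT16 and 72.2, 72.7 and 65.9 at ZT20. The ZT12 libraries lay above those of every other time, and the ratio of the highest to the lowest group mean was 4.97. In GRLKO livers the values were 43.5, 48.6 and 50.1 CPM at ZT0, 54.0, 47.6 and 65.0 at ZT4, 125, 127 and 99.1 at ZT8, 192, 193 and 200 at ZT12, 167, 142 and 175 at ZT16 and 101, 103 and 77.4 at ZT20. The peak was again at ZT12, with a ratio of 4.12, below the 5.73 of Nnmt in these livers. Compared with WT at the same time, Nampt was lower in every GRLKO liver at ZT8 and ZT12. It was higher in every GRLKO liver at ZT16 and ZT20.

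On control diet, mean Nampt in WT was highest at ZT12 (160 CPM) and lowest at ZT4 (35.4 CPM), a ratio of 4.54. In GRLKO it was highest at ZT16 (121 CPM) and lowest at ZT4 (43.6 CPM), a ratio of 2.78. At ZT12 the control WT livers spread from 121 to 206 CPM and the GRLKO livers from 102 to 129 CPM, so the groups overlapped.

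Rhythms were tested with JTK_CYCLE on variance-stabilised values, with a period of 24 h and an amplitude of at least 0.1. In WT on calorie restriction 3 of 10 members were rhythmic (6 at an unadjusted p under 0.05), against 20.8% of all genes tested. All were NAD enzymes: Nampt (JTK_CYCLE adjusted p = 4.66e-05, peak ZT12), Nmnat1 (0.00952, ZT12) and Nnmt (0.00115, ZT16). That depended on the setting. JTK_CYCLE called Sirt2 with filtered genes alone (0.038) or log2 CPM (0.0436). A cosinor F-test called Sirt2 (0.00943), Sirt3 (0.0211) and Sirt7 (0.0163). In GRLKO on calorie restriction the count was 4 of 10 (5 unadjusted), against 19.0% of all genes. Nampt (0.000373, ZT12), Nmnat1 (0.0229, ZT12), Nnmt (0.0229, ZT16) and Sirt3 (0.0229, ZT8) passed. In WT on control diet it was 4 of 10 (5 unadjusted), against 24.1%, with Sirt3 (1.85e-05, ZT12), Nampt (0.00154, ZT16), Nnmt (0.00197, ZT16) and Sirt1 (0.0183, ZT12). Sirt2 had an adjusted p of 0.0122 there but an amplitude of 0.056, under the minimum. In GRLKO on control diet it was 2 of 10 (5 unadjusted), against 20.9%, Sirt3 (0.000595, ZT12) and Nampt (0.000431, ZT16). The 4 alternatives gave 3 to 4 members in that set. JTK_CYCLE called Nmnat1 with log2 CPM (0.0329) or no minimum amplitude (0.0406), and Sirt2 with filtered genes alone (0.0342). A cosinor F-test called both (0.0364 and 0.0244).

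Several of these rhythm calls rested on the full number of livers. Leaving out replicate number 1, 2 or 3 removes 1 liver at each of 6 times, and number 4 only those of the control groups with 4 livers. In WT on calorie restriction that also took the rhythmic genes overall from 3874 to between 387 and 724. Nampt stayed called there (0.0131 to 0.0158). Nmnat1 was lost without WT replicate 1 (0.299) or 3 (0.183), and Nnmt without WT replicate 1 (0.086) or 3 (0.072). In GRLKO on calorie restriction the rhythmic genes overall fell from 3599 to between 297 and 394. Sirt3 (0.132 to 0.343), Nmnat1 (0.101 to 0.196) and Nnmt (0.0695 to 0.451) were lost there without any of the replicates 1, 2 and 3. Nampt was lost there without replicate 1 (0.0526). On control diet, Sirt1 in WT was lost without replicate 1 (0.0584), 2 (0.714) or 4 (0.14), while the other calls held. Rhythmic genes overall fell there from 4544 to between 2189 and 3350 in WT, and from 3913 to between 1134 and 3364 in GRLKO.

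Whether rhythms differed was tested with limma on sine and cosine terms of time. Between the genotypes on calorie restriction 1 of 10 members differed (1 unadjusted), against 0.659% of all genes, and this was Nampt (adjusted p = 0.0341). Its fitted peak was at 11.75 h in WT and 13.33 h in GRLKO. The call was lost without GRLKO replicate 1, 2 or 3 (0.168, 0.168 and 0.173) and without WT replicate 1, 2 or 3 (0.118, 0.196 and 0.054). Over all genes the calls fell from 86 to between 5 and 20 in these fits. On control diet limma called 0 of 9 members (0 unadjusted, and edgeR on counts also 0), against 0.366% of all genes. Nnmt (0.894) and Sirt1 (0.664), rhythmic in WT and not in GRLKO by JTK_CYCLE there, were thus not shown to differ. Sirt3 on calorie restriction, rhythmic in GRLKO and not in WT by JTK_CYCLE, was not shown to differ either (0.852).

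Between the diets, the rhythm of 2 of 9 members differed in WT (7 unadjusted), against 26.6% of all genes. The fitted peak of Nampt was at 11.75 h on calorie restriction and 14.09 h on control diet (limma adjusted p = 0.000815, 0.000444 to 0.0135 without each replicate). Sirt7 differed as well (0.0425), with fitted peaks at 0.91 h and 14.44 h, where JTK_CYCLE called it rhythmic on neither diet (0.0859 and 1) and a cosine fit called it on calorie restriction (0.0163) and not on control diet (0.83). That call was lost without restricted replicate 2 (0.181) or 3 (0.234) or control replicate 1 (0.106), 2 (0.0621) or 3 (0.0965), and with no filter on low counts (0.056). Sirt2 passed without restricted replicate 1 (0.0426) and Sirt4 without control replicate 3 (0.0444) or with log2 CPM (0.0444). Sirt1 (0.444), Sirt3 (0.115), Nnmt (0.416) and Nmnat1 (0.088), called rhythmic on 1 of the diets or on both, did not pass. The diets come from separate sets of libraries in this comparison too.

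**Figure D2:**
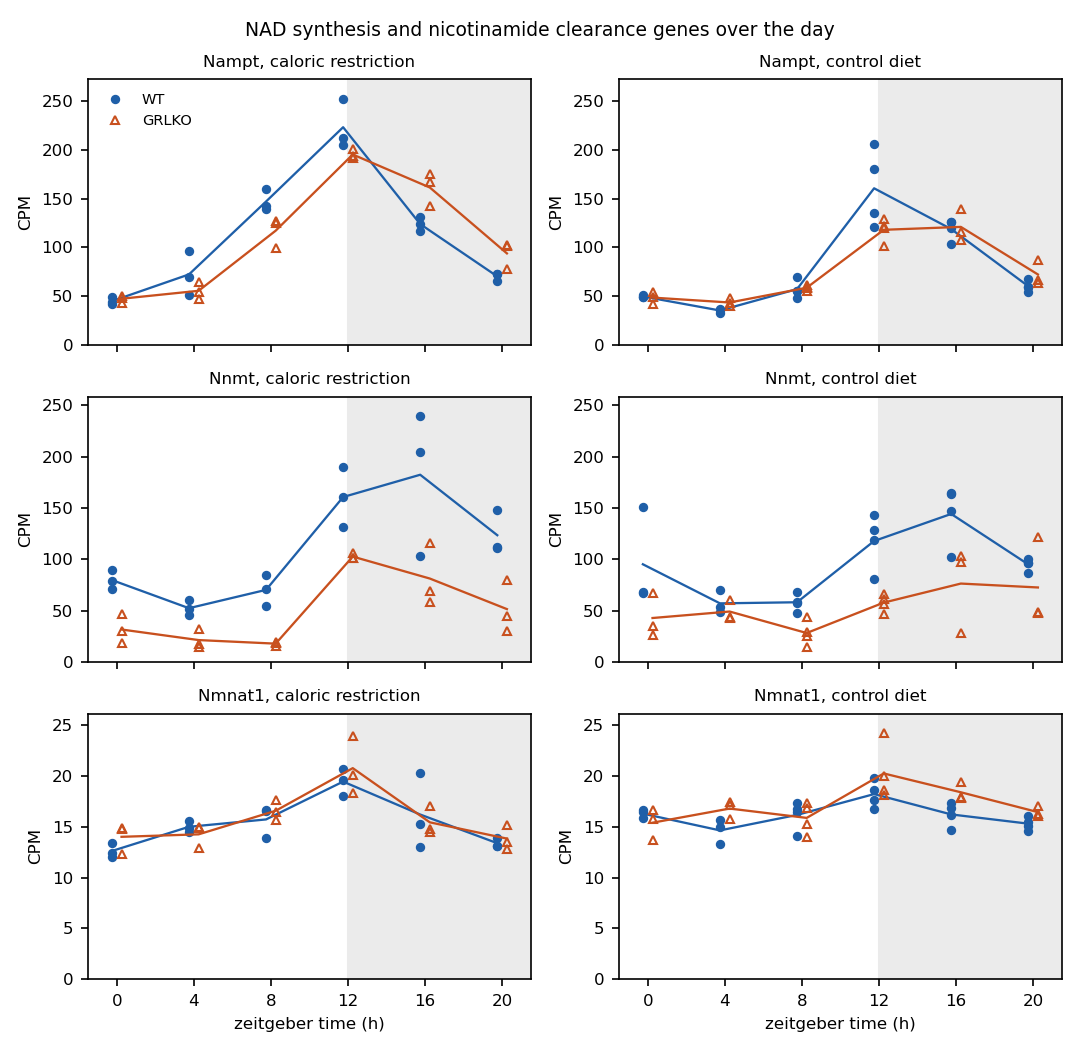
Nampt, Nnmt and Nmnat1 in CPM against zeitgeber time in h, on calorie restriction (left) and control diet (right), in WT (filled blue circles) and GRLKO (open orange triangles). Points are libraries, lines join group means and grey marks the dark phase from ZT12. Mean Nampt in calorie-restricted livers runs from 44.9 CPM at ZT0 to 223 CPM at ZT12 in WT, and Nnmt lies lower in GRLKO at all 6 times on both diets.

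Sirt1 stood out at a single time of day. In WT on calorie restriction it was at 31.3, 24.4 and 24.7 CPM at ZT12, while the livers of the other 5 times lay between 9.33 and 17.0 CPM. The group means ran from 9.93 CPM at ZT16 to 26.8 CPM at ZT12, a ratio of 2.70, against 1.67 in GRLKO on the same diet. On control diet, WT livers had 9.03, 11.3 and 17.4 CPM (lowest, median and highest). The JTK_CYCLE adjusted p for Sirt1 in WT on calorie restriction was 0.869, and a cosine fit gave 0.0667. The narrow peak at ZT12 is therefore not a rhythm call.

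Sirt3 was also highest at ZT12, with group means from 58.0 CPM at ZT16 to 111 CPM at ZT12 in WT on calorie restriction and from 51.0 CPM at ZT0 to 87.2 CPM at ZT12 in WT on control diet. In GRLKO the span was 61.3 to 129 CPM and 60.5 to 96.0 CPM. Sirt7 ran the other way on calorie restriction, from 45.2 CPM at ZT0 to 32.6 CPM at ZT12 in WT. On control diet its WT means stayed between 47.1 CPM at ZT0 and 53.9 CPM at ZT4. Sirt6 means on calorie restriction ran from 2.68 CPM at ZT0 to 1.63 CPM at ZT12 in WT, and Sirt4 from 8.69 CPM at ZT20 to 5.43 CPM at ZT12. Sirt2 means ran from 42.7 CPM at ZT16 to 54.3 CPM at ZT12 in WT on calorie restriction, and Nmnat1 from 12.6 CPM at ZT0 to 19.5 CPM at ZT12. For each gene and set named here, the livers of the highest and the lowest time did not overlap. These times were picked by the same group means, and the share of all genes is not given. The gap therefore describes the livers and is not evidence of a daily change.

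**Figure D3:**
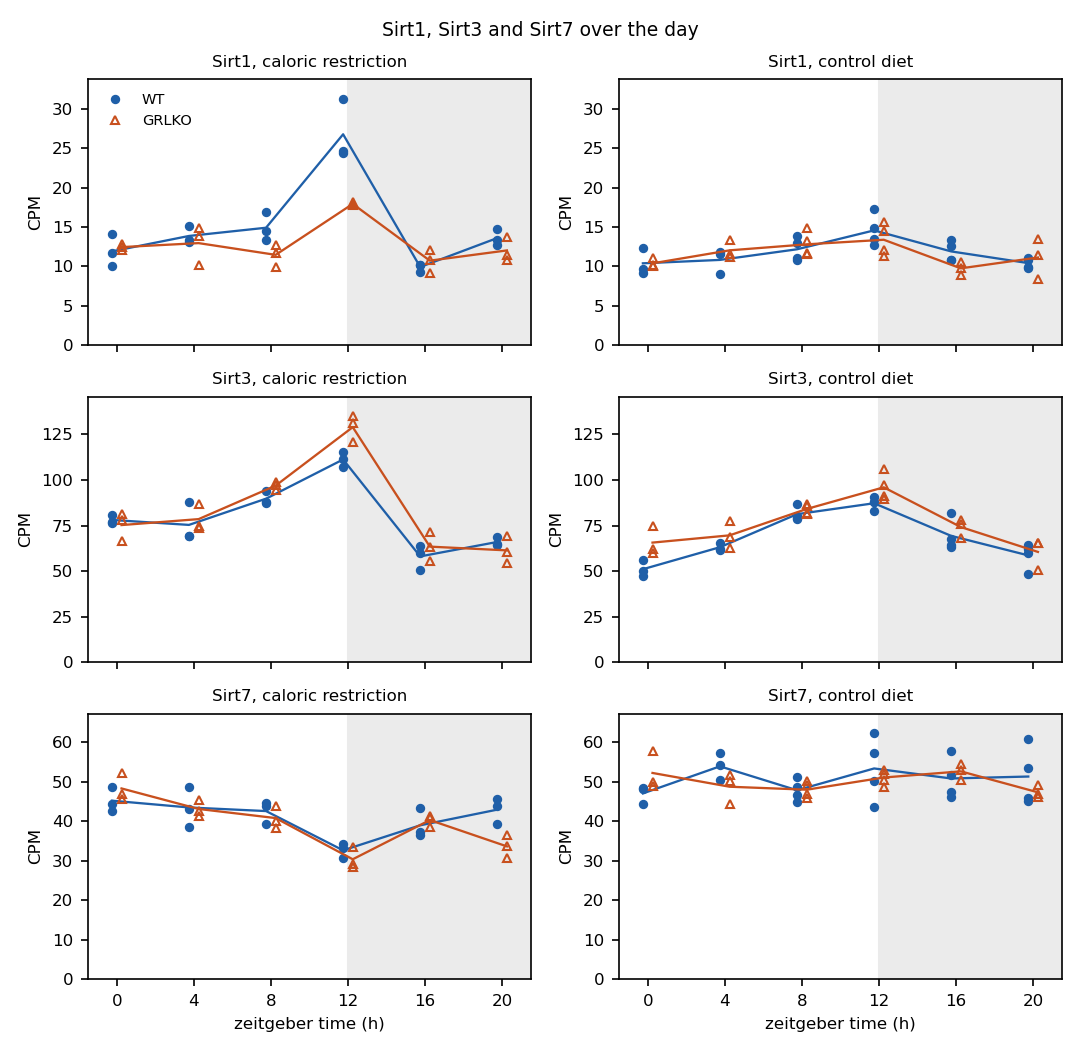
Sirt1, Sirt3 and Sirt7 in CPM against zeitgeber time in h, on calorie restriction (left) and control diet (right), in WT (filled blue circles) and GRLKO (open orange triangles). Points are libraries, lines join group means and grey marks the dark phase from ZT12. Sirt1 at ZT12 on calorie restriction is at 24.4 to 31.3 CPM in WT and 17.8 to 18.2 CPM in GRLKO.

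GRLKO was compared with WT at each time, and the differences at single times were not tested one against another. Nnmt was the member edgeR called most often. On calorie restriction edgeR called 3 of the 54 member and time combinations tested, Nnmt at ZT8 and ZT12 and Sirt1 at ZT12, all down. On control diet it called 1 of 54, Nnmt at ZT12, also down.

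By time on calorie restriction, edgeR called 0 of 9 members at ZT0 (1 unadjusted, DESeq2 1), 0 at ZT4 (1 unadjusted, DESeq2 1) and 1 at ZT8 (3 unadjusted, DESeq2 1). The shares of all genes called were 0.502%, 0.690% and 2.55%. At ZT12 it called 2 of 9 (3 unadjusted, DESeq2 2), against 15.3% of all genes. At ZT16 and ZT20 it called 0 of 9 (3 unadjusted and DESeq2 1 at each), against 4.54% and 1.47%. The DESeq2 calls were Nnmt at ZT0, ZT4 and ZT8, Nnmt and Sirt1 at ZT12, and Nampt at ZT16 and ZT20. The shares of all genes, here and on control diet, are edgeR's, and those of DESeq2 are not given.

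By time on control diet, edgeR called 0 of 9 members at ZT0 (2 unadjusted, DESeq2 0), at ZT4 (1 unadjusted, DESeq2 0) and at ZT8 (1 unadjusted, DESeq2 1, Nnmt). The shares of all genes called were 0.536%, 0.195% and 1.43%. At ZT12 it called 1 of 9 (2 unadjusted, DESeq2 1), against 2.08% of all genes. It called 0 of 9 at ZT16 (1 unadjusted, DESeq2 0) and at ZT20 (0 unadjusted, DESeq2 0), against 1.98% and 0.420%.

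Separation of the genotypes, with no liver of one inside the range of the other, is common in these data. On calorie restriction 1, 1, 5, 5, 2 and 3 of 9 members were separated from ZT0 to ZT20. The shares of all genes were 20.3%, 21.4%, 24.7%, 36.8%, 25.2% and 27.2%, where chance gives 10%. On control diet it was 2, 4, 1, 1, 2 and 1 of 9 members, against 22.3%, 16%, 7.35%, 8.46%, 16.7% and 11.9% of all genes. Chance gives 10% at ZT0 and ZT4, 2.86% at ZT8 and ZT12 and 5.71% at ZT16 and ZT20. Over the 12 comparisons 87.2% of all genes were separated at least once, as were all 9 members, so separation without a call is given as a description of the livers and not as a difference.

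Nnmt on calorie restriction was at 71.4, 85.0 and 54.6 CPM in WT and 19.7, 18.2 and 15.9 CPM in GRLKO at ZT8. The highest GRLKO liver was far below the lowest WT liver (-1.97, SE 0.17, edgeR adjusted p = 0.00326, and 0.00352 to 0.0279 without each library). WT replicate 2 at ZT8 had the highest Kupffer and myeloid marker sum of all libraries (381 CPM, median 144 CPM), and the call is kept without it. The part of these markers in the value was not tested. At ZT12 Nnmt was at 132, 161 and 190 CPM in WT and 101, 101 and 106 CPM in GRLKO, again separated, with the GRLKO livers close together (-0.65, SE 0.13, adjusted p = 0.0169). That call was lost without GRLKO replicate 1 (0.0591), 2 (0.0604) or 3 (0.0604).

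At the other times on calorie restriction Nnmt was lower in GRLKO but not called. It was at 70.8, 89.9 and 79.0 CPM in WT and 46.4, 18.8 and 29.9 CPM in GRLKO at ZT0 (-1.33, edgeR adjusted p = 0.112), and at 45.9, 51.3 and 60.3 against 14.6, 17.8 and 31.9 CPM at ZT4 (-1.29, 0.116). These groups did not overlap. At ZT16 it was at 205, 103 and 240 CPM in WT and 58.9, 116 and 69.4 CPM in GRLKO, where WT replicate 2 lay below GRLKO replicate 2 (-1.16, 0.114). At ZT20 it was at 148, 111 and 112 against 44.8, 30.1 and 79.8 CPM, separated (-1.23, 0.115). Nnmt passed without GRLKO replicate 1 at ZT0 (0.0317), GRLKO replicate 3 at ZT4 (0.0245), WT replicate 2 at ZT16 (0.047) and GRLKO replicate 3 at ZT20 (0.0356). In a fit of all libraries of the diet together, which shares the spread between times, Nnmt passed at ZT0 (0.0425), ZT4 (0.0364), ZT16 (0.0242) and ZT20 (0.0195), and missed at ZT12 (0.164).

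On control diet Nnmt was at 81.1, 119, 129 and 143 CPM in WT and 61.1, 66.7, 47.3 and 56.7 CPM in GRLKO at ZT12, without overlap (-1.03, SE 0.17, edgeR adjusted p = 0.0178). The call was lost without GRLKO replicate 1 (0.0518) or 4 (0.0583), or WT replicate 2 (0.057) or 3 (0.0581), in the fit of all control libraries (0.0819) and with replicate numbers as a block (0.0945). At ZT8 it was at 58.0, 68.4, 58.6 and 48.0 CPM in WT and 25.5, 43.7, 29.5 and 14.4 CPM in GRLKO, separated but not called (-1.05, 0.119, and 0.0391 without GRLKO replicate 2). The fold changes at ZT0, ZT4, ZT16 and ZT20 were -1.16, -0.21, -0.92 and -0.37, with overlapping groups. At ZT20 GRLKO replicate 1 was at 122 CPM and the other GRLKO livers at 47.7 and 48.3 CPM, and without replicate 1 the gene passed (-0.99, 0.0105). That liver also had the highest cholangiocyte marker sum of all 90 libraries (152 CPM with Spp1 on top, where the median was 43.7 CPM). Its stellate cell marker sum was 191 CPM, where the median was 86.5 CPM. Its correlations with its replicates (0.938 and 0.943 on log2 CPM) were the lowest of the 102 replicate pairs. The part of these features in the value was not tested.

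Averaged over the day, Nnmt fell by 1.28 on the log2 scale on calorie restriction (SE 0.14, edgeR adjusted p = 2.96e-08) and by 0.79 on control diet (SE 0.15, adjusted p = 2e-04). It was lower in GRLKO at 6 of 6 times on each diet, with 5 and 2 of these separated, where 4.41% of all genes had 5 or more on calorie restriction and 19.1% had 2 or more on control diet. Over the day, WT livers had 45.9, 96.4 and 240 CPM on calorie restriction and GRLKO livers 14.6, 38.3 and 116 CPM (lowest, median and highest). On control diet these were 48.0, 91.6 and 165 CPM in WT and 14.4, 47.5 and 122 CPM in GRLKO. The genotype difference was not shown to depend on diet, at ZT12 (interaction 0.39, adjusted p = 0.506) or over the day (-0.48, SE 0.21, adjusted p = 0.219). At ZT8 that was not tested.

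Sirt1 on calorie restriction at ZT12 was at 31.3, 24.4 and 24.7 CPM in WT and 17.8, 17.9 and 18.2 CPM in GRLKO. All 3 GRLKO livers were below all 3 WT livers and close together (-0.59, SE 0.12, edgeR adjusted p = 0.017). The call was lost without GRLKO replicate 1, 2 or 3 (0.0514, 0.053 and 0.0552), within a range of 0.0228 to 0.0552, and with replicate numbers as a block (0.0521). At ZT8 Sirt1 was at 13.3, 17.0 and 14.4 CPM in WT and 12.8, 11.7 and 9.97 CPM in GRLKO, separated but not called (-0.38, 0.21). On control diet at ZT12 it was at 14.8, 13.5, 12.7 and 17.4 CPM in WT and 15.6, 11.4, 14.5 and 12.0 CPM in GRLKO, which overlapped. The genotype difference at ZT12 was not shown to depend on diet (interaction -0.44, SE 0.19, adjusted p = 0.321).

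Nampt was called at no time on either diet by edgeR. On calorie restriction its fold changes were 0.08, -0.38, -0.33, -0.20, 0.38 and 0.45 from ZT0 to ZT20, 3 below 0 and 3 above 0, with the genotypes separated at ZT8, ZT12, ZT16 and ZT20. Of all genes 9.71% were separated at 4 or more times there and 9.21% in both directions. The edgeR adjusted p at ZT16 was 0.0884 and at ZT20 0.124, and DESeq2 gave 0.0189 and 0.0263. At ZT20, edgeR passed it without GRLKO replicate 3 (0.57, 0.0422). On control diet the genotypes were separated at ZT4 alone, at 37.1, 33.1 and 35.9 CPM in WT and 39.6, 42.9 and 48.2 CPM in GRLKO, all GRLKO livers higher (0.30, 0.382). At ZT12 the fold change ran the other way with overlap (-0.45, 0.276, and 0.0289 in the fit of all control libraries).

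The day averages pool all livers of a diet. On calorie restriction edgeR called 3 of 10 members, all down (3 unadjusted), against 32.9% of all genes. Beside Nnmt these were Sirt1 (-0.18, SE 0.06, adjusted p = 0.0187) and Sirt2 (-0.09, SE 0.03, adjusted p = 0.0183). Sirt2 was lower in GRLKO at 6 of 6 times, by 0.04 to 0.13 on the log2 scale, with 1 separated. Of all genes, 76.9% were separated at 1 or more times there. The share of all genes with the same direction at all 6 times is not given, here or for Nnmt and Sirt3. Sirt1 was lost without GRLKO replicate 3 (0.0852) or WT replicate 1 (0.104) or 2 (0.0595), and Sirt2 without GRLKO replicate 1 (0.0781) or WT replicate 3 (0.09). Nampt averaged -0.00 (0.978), with its differences at single times in both directions.

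On control diet 2 of 9 members were called, Nnmt down and Sirt3 up (3 unadjusted), against 18.6% of all genes. Sirt3 rose by 0.14 (SE 0.04, edgeR adjusted p = 0.0129) and was higher in GRLKO at 6 of 6 times by 0.05 to 0.36, though the difference at ZT20 turned to -0.04 with replicate numbers as a block. It lost the call without WT replicate 3 (0.0528). At ZT0 Sirt3 was at 56.0, 47.1 and 49.8 CPM in WT and 74.6, 62.3 and 59.9 CPM in GRLKO, separated (0.36, 0.222, and 0.0347 in the fit of all control libraries). On calorie restriction it was at 115, 107 and 111 CPM in WT and 121, 135 and 131 CPM in GRLKO at ZT12, separated too (0.20, 0.133), and averaged 0.06 over the day (0.291).

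Whether the genotype acted differently on the diets was tested as an interaction. At ZT12 edgeR called 0 of 9 members (1 unadjusted, DESeq2 0), against 1.01% of all genes. Over the day it called 0 of 10 (2 unadjusted, DESeq2 0), against 3.01%. So the genotype differences called on 1 diet were not shown to differ between the diets. The day interactions were -0.16 for Sirt1 (adjusted p = 0.343), -0.09 for Sirt2 (0.205), -0.08 for Sirt3 (0.571), -0.10 for Sirt4 (0.637), -0.01 for Sirt6 (1), -0.04 for Sirt7 (0.804) and -0.05 for Nmnat1 (0.794).

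Further separated values without a call follow. Sirt4 on calorie restriction was at 4.56, 6.14 and 5.59 CPM in WT and 6.52, 6.61 and 6.28 CPM in GRLKO at ZT12 (0.24, edgeR adjusted p = 0.359). At ZT16 it was at 7.58, 7.38 and 7.81 CPM in WT and 5.89, 5.59 and 6.01 CPM in GRLKO (-0.38, 0.165), above WT at the one time and below at the other, as for 9.21% of all genes on this diet. Sirt7 at ZT20 was at 43.9, 39.4 and 45.6 CPM in WT and 36.4, 30.7 and 33.8 CPM in GRLKO (-0.32, 0.171, and 0.02 in the fit of all libraries of the diet). At ZT8 on that diet Sirt3 was separated and higher in GRLKO (0.11, 0.417) and Sirt2 separated and lower (-0.13, 0.37).

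On control diet Nmnat1 was separated at 3 times with GRLKO higher, none near a call, and 6.22% of all genes were separated at 3 or more times in 1 direction there. It was at 13.3 to 15.7 CPM in WT and 15.8 to 17.5 CPM in GRLKO at ZT4 (0.20, edgeR adjusted p = 0.586). At ZT16 it was at 14.7 to 17.3 against 17.8 to 19.5 CPM (0.18, 0.355), and at ZT20 at 14.6 to 16.1 against 16.1 to 17.0 CPM, by a narrow gap (0.11, 0.674). Its day average was 0.09 (unadjusted p = 0.0259, adjusted p = 0.105), and on calorie restriction 0.04 (0.618) with overlap at all 6 times. Separated and higher in GRLKO on control diet were also Sirt7 at ZT0 (0.15, 0.48) and Sirt6 at ZT4 (0.40, 0.599). Sirt2 at ZT4 (-0.12, 0.594) and Sirt1 at ZT16 (-0.29, 0.286) were separated and lower. Day averages of Sirt4, Sirt6 and Sirt7 were -0.07 (0.417), 0.02 (0.914) and -0.06 (0.182) on calorie restriction and 0.03 (0.79), 0.04 (0.818) and -0.02 (0.795) on control diet. Those of Sirt1 and Sirt2 on control diet were -0.02 (0.903) and 0.01 (0.933).

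Cell type markers moved with genotype at ZT12 on calorie restriction, read here against 15.3% of all genes called. Of the hepatocyte markers 5 of 7 fell (median -0.44), with sums of 174510, 176340 and 181420 CPM in WT and 134650, 140860 and 125520 CPM in GRLKO, and Alb on top. Of the Kupffer and myeloid markers 4 of 8 rose (median 1.05), with sums of 53.6, 87.8 and 63.5 CPM in WT and 149, 118 and 181 CPM in GRLKO and no gene at 0. Clec4f was the most abundant of them, except in GRLKO replicate 3, where Lyz2 was. In the endothelial list 1 of 6 rose, in the erythrocyte list 1 of 5 tested rose and in the cholangiocyte list 1 of 3 tested fell. No neutrophil or exocrine pancreas gene passed the filter on low counts there. WT replicate 3 also held exocrine pancreas RNA, at 1210 CPM over 10 genes with Amy2a5 on top, where the other 5 libraries of that comparison had 0.0616 to 0.697 CPM. Without WT replicate 3, Nnmt (-0.52, edgeR adjusted p = 0.0434) and Sirt1 (-0.65, 0.0344) were still called. Both calls were lost without any single GRLKO replicate, as given above. The part of the pancreas RNA and of the other markers in these results was not tested.

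On control diet at ZT12, 3 of 7 hepatocyte markers fell (median -0.22), and 1 of 4 adipocyte markers tested rose, against 2.08% of all genes. GRLKO replicate 3 had 88.7 CPM of the 8 adipocyte genes with Cidec on top, against 16.1, 10.7 and 22.1 CPM in the other GRLKO livers and 10.5, 19.0, 17.4 and 6.24 CPM in WT. The defining genes Adipoq, Plin1, Lep, Retn and Cfd were at 0 in most libraries. Without GRLKO replicate 3 Nnmt was still called (-0.95, edgeR adjusted p = 0.048). The part of the adipocyte genes in that call was not tested. Averaged over the day, hepatocyte markers fell on calorie restriction (4 of 7, median -0.19) and on control diet (5 of 7, median -0.21), and endothelial markers rose on calorie restriction (6 of 6, median 0.22). Of all genes, 32.9% were called on calorie restriction and 18.6% on control diet in these averages. The hepatocyte list holds Cps1 and Cyp2e1, which also stand in the substrate and clearance lists. Of the adipocyte markers tested, 2 of 4 rose over the day on control diet. Cfd was the most abundant adipocyte gene in several control GRLKO livers and in no WT liver. At ZT8 it was on top in every GRLKO liver. The list sums there were 44.0, 29.2, 64.7 and 39.8 CPM, against 6.23, 5.86, 4.49 and 14.3 CPM in WT. The part of all these markers in the members' day averages was not tested.

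Other NAD genes differed with genotype too. At ZT12 on calorie restriction, 3 of 8 tryptophan path genes fell (median -0.40), read against 15.3% of all genes called. Tdo2 (-1.10, edgeR adjusted p = 0.00199; means 1991 CPM in WT and 934 CPM in GRLKO), Acmsd (-1.5, 0.00119; 54.5 and 19.4 CPM) and Kmo, which hydroxylates kynurenine (-0.52, 0.0485), made up these 3. Kmo was not called without GRLKO replicate 1 (0.13) or 3 (0.147) or WT replicate 2 (0.132) or 3 (0.126). In the salvage list 1 of 5 tested rose, Nmnat2, a cytosolic NAD synthase (3.11, 0.00153; means 0.444 and 3.86 CPM). It was near the floor in WT livers (0.282 to 0.558 CPM) and at 3.16 to 4.37 CPM in GRLKO livers. It passed the filter on low counts through the GRLKO livers, so the size of its fold change is uncertain. Slc25a51 fell (-1.13, 0.00197; means 308 and 142 CPM) and Nadk rose (0.33, 0.0488), 2 of 5 in their list, but Nadk was not called without any WT replicate (0.123, 0.104 and 0.101) or any GRLKO replicate (0.0805, 0.0869 and 0.159). Parp3 rose (0.54, 0.012), 1 of 6 consumers tested, and Cyp2e1 fell (-0.44, 0.0116), 1 of 3 in the clearance list.

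Of 9 sirtuin substrates tested at ZT12 on calorie restriction, 1 rose and 4 fell. Idh2, a mitochondrial dehydrogenase acted on by Sirt3, rose (0.67, edgeR adjusted p = 0.0129), and Ppargc1a (-0.97, 0.00732) and Foxo1 (-0.89, 0.00331) fell. Of 12 clock genes 4 rose, led by Dbp (1.71, 0.00472) and Nr1d1 (1.29, 0.000749), and 5 fell, led by Arntl (-2.52, 0.0368) and Clock (-2.22, 0.00199). Arntl was not called without GRLKO replicate 1 (0.0595) or 2 (0.111) or WT replicate 1 (0.0971), 2 (0.0506) or 3 (0.0915). On control diet at ZT12, read against 2.08% of all genes called, Tdo2 (-0.63, 0.00349) fell, 1 of 8, as did Cps1 (-0.50, 0.044) and Foxo1 (-0.59, 0.0154), 2 of 9 substrates, and Per1 (-1.04, 0.0332), 1 of 10 clock genes. Cps1 stayed called only without GRLKO replicate 4, at 0.0842 to 0.111 without each other library. Foxo1 was lost without GRLKO replicate 2 (0.0522). Per1 was lost without GRLKO replicate 2 (0.0897), 3 (0.0863) or 4 (0.0957), or WT replicate 1 (0.0676), 2 (0.0726) or 4 (0.0669).

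Over the day, Acmsd, Tdo2 and Ido2 fell on both diets. On calorie restriction the log2 fold changes were -1.17, -0.65 and -0.56 (edgeR adjusted p = 1.82e-10, 1.7e-09 and 1.33e-05), and Kynu, which cleaves kynurenines, fell as well (-0.25, 0.000519), 4 of 8. On control diet they were -0.63, -0.36 and -0.30 (0.000503, 1.33e-07 and 0.00604), 3 of 8. Nmnat3 rose on both diets (0.38, 0.000858, and 0.26, 0.00235), as did Nadk (0.12, 0.00378, and 0.22, 1.87e-06). On calorie restriction Nmnat2, near the floor in WT at ZT12, rose (1.55, 9.61e-05). Nadsyn1, which amidates the nicotinic acid form of NAD, fell there (-0.16, 0.00176). Parp3 (0.17, 0.00487) and Parp1 (0.15, 0.000535) rose there, Parp3 not without GRLKO replicate 1 (0.0655). These are read against 32.9% and 18.6% of all genes called.

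Among substrates, Idh2 rose by 0.36 on each diet over the day (edgeR adjusted p = 8.84e-08 and 3.74e-08) and Cps1 fell (-0.47, 1.8e-07, and -0.32, 5.19e-06). Acadl rose (0.13, 0.000767) and Ppargc1a fell (-0.35, 0.00165) on calorie restriction, where 3 rose and 3 fell of 10. Foxo1 fell (-0.20, 0.000952) on control diet, where 3 rose and 2 fell of 10. Of 13 clock genes, Nr1d1 rose (0.64, 0.000597) and 4 fell on calorie restriction, with Per1 (-1.11, 2.68e-07) and Arntl (-0.68, 0.0346) lowest. On control diet Nr1d1 (0.54, 0.0111) and Per3 (0.49, 0.000207) led 3 that rose, and Per1 (-0.82, 0.00014) and Cry1 (-0.27, 0.00318) fell. Arntl was lost without GRLKO replicate 1 (0.134) or WT replicate 1 (0.0761) or 2 (0.372), Nr1d1 on control diet without GRLKO replicate 1 (0.0839) or 3 (0.0541), and Cry1 without GRLKO replicate 3 (0.0615).

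The rhythm of the same lists was read with JTK_CYCLE. Clock genes were rhythmic in 12 of 13 cases in each of the 4 sets of genotype and diet. Of the 8 tryptophan path genes, 5 were rhythmic in WT and 4 in GRLKO on calorie restriction, and 5 and 4 on control diet. Of the 6 other salvage genes, 2 and 3 were rhythmic on calorie restriction and 3 and 2 on control diet. Of the 8 other consumers it was 2 and 1, and 4 and 4, and of 5 kinase and transport genes 2 and 3, and 2 and 2. Of 10 substrates it was 5 and 5, and 6 and 3, and of 3 clearance genes 2 and 1, and 2 and 2. Of the 2 Sirt1 regulators, JTK_CYCLE called 1 in GRLKO on control diet and 0 in the other sets (0 unadjusted on calorie restriction in either genotype, 1 in WT on control diet). These counts are read against 20.8% and 19.0% of all genes in WT and GRLKO on calorie restriction and 24.1% and 20.9% on control diet, and several lie near those shares.

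Between the diets in WT, limma called a different rhythm for 13 of 13 clock genes, 4 of 5 salvage genes, 4 of 8 tryptophan path genes and 2 of 3 clearance genes tested, against 26.6% of all genes. It called 1 of 7 consumers and 1 of 10 substrates. It called 0 of 5 kinase and transport genes (2 unadjusted) and 0 of 2 Sirt1 regulators (0 unadjusted), and no other tool was counted for these lists.

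Genes with a time course most like a member's were sought among 12624 genes over the 24 group means of the time series, after the mean of each diet was taken off. The points share 2 count tables and 6 times of day, and the correlations are a description. For Nampt these were Marveld1 (Pearson r 0.950), Osbpl5 (0.942), Tspan4 (0.933), Tor1b (0.927) and Pdxk (0.926), and the nearest member was Nmnat1 (0.81). For Sirt1 they were Pan3 (0.905), Slc25a33 (0.904), Chic2 (0.901), Jmy (0.899) and Zbtb2 (0.899), with Sirt3 (0.73) and Sirt2 (0.69) the nearest members. For Nnmt they were Pole4 (0.890), Wasf1 (0.886), Dnajc18 (0.878), Dst (0.876) and mt-Nd4 (0.874).

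Gene positions are from GENCODE vM21 on the mm10 build. The genes the results turn on are Sirt1 (ENSMUSG00000020063) at chr10:63319005-63381704 on the minus strand, Nampt (ENSMUSG00000020572) at chr12:32819545-32853349 on the plus strand and Nnmt (ENSMUSG00000032271) at chr9:48591877-48605153 on the minus strand. Of the 10 members, 6 overlap another annotated gene. The labels name a library kit that does not mark the strand and the study's methods also name a stranded kit, so whether reads from overlapping exons were told apart by strand is not known. Sirt1 is crossed by the antisense gene Gm16145, Sirt2 by Nfkbib, Sirt3 by Ric8a and Psmd13, and Nmnat1 by Tmem274, all on the opposite strand. Nampt holds the noncoding gene Gdap10 on its own strand, and Sirt7 meets Mafg and Mir6936 on its own strand.

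Promoter windows of 300 bases, 250 before and 50 after a RefSeq transcript start, were read from RefSeq (GRCm38.p6) for 9 of the 10 members, 12 windows in all, with none for Nnmt. The RefSeq starts of the Sirt1 and Nampt windows lie inside the GENCODE extents given above, which span all annotated transcripts, so they are not the outermost starts. The windows were searched on both strands for the E-box CACGTG, the D-box TTATGTAA, the forkhead site TTGTTTAC and the paired GR sites. Of 32851 mouse windows, 7.15% held the E-box, 0.938% the D-box, 1.23% the forkhead site and 0.00913% the paired GR sites. Sirt1 alone among the members held any of these letters, with 2 E-boxes that begin at positions -115 and -43 from the RefSeq start. Its window is shown beside that of Nampt as an example without a match. Sirt2, Sirt3 and Nmnat1, with highest means at ZT12 on calorie restriction as well, held none either. A match is a description of the letters and not evidence of binding. The sequences run 5′ to 3′ on the gene's own strand over the 250 bases before the start, with E-boxes in capitals, at chr10:63339036-63339285 (minus strand) for Sirt1 and chr12:32820085-32820334 (plus strand) for Nampt.
Sirt1: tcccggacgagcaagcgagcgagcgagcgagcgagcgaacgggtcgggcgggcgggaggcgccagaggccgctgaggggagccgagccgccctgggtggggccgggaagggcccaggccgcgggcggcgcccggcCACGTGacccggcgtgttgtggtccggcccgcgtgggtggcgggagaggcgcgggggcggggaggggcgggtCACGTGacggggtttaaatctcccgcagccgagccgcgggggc
Nampt: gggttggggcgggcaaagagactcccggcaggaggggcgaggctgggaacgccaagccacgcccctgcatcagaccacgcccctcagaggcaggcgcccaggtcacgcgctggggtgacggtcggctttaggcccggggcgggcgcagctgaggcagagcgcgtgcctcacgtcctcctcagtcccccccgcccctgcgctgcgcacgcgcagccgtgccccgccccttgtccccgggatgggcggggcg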

How the data were processed

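Liver poly(A) RNA was sequenced in 90 libraries. The deposited values are estimated counts per gene, which the authors made with Salmon 1.8.0 and tximport 1.18.0. The labels name FastQC, MultiQC, Salmon, DESeq2 and the mm10 build, and do not state the transcript annotation. Estimated counts were rounded to whole numbers for the tests. Low counts were filtered with filterByExpr (minimum count 10), libraries were scaled by TMM, and groups were compared with edgeR 4.0.16 (quasi-likelihood F-test) in R 4.3.3, with Benjamini-Hochberg adjustment over all genes tested. Log2 CPM used a prior count of 2. Rhythms were tested with JTK_CYCLE written in R (24 h period, 6 offsets of 4 h, exact null distribution, two-sided) over genes above 0 in any library of the set, on variance-stabilised values from DESeq2 1.42.0. Differences between rhythms were tested with limma 3.58.1. Figures used python 3.11.15 and matplotlib 3.10.9. The tests were checked on simulated data.

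The members and lists were chosen with earlier results of these data known. Of 27654 identifiers, 410 had no symbol (0.107% of counts), and 65 of 67 list genes were matched (Pnp and Nadk2 were not analysed here). The deposited tables also hold 6 columns of variance-stabilised values, the authors' own transform of the corticosterone libraries, which were not used. Named genes were members (every call, and further values where groups were separated or near the threshold), Nr3c1, Fkbp5 and Tsc22d3, and, from each list, every called gene up to 4 and otherwise the pair of largest fold change in each direction, of which 1 gene is not reported here. For likeness, the 5 genes of highest correlation with Nampt, Sirt1 and Nnmt were named.

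Alternatives were DESeq2, RLE factors, no filter on low counts, replicate numbers as a block, a fit of all libraries of a diet, an additive time model, ZT12 WT libraries of the time series in place of the ZT12 experiment, leaving out each library, and, for rhythms, a cosinor F-test, edgeR on counts, log2 CPM, no minimum amplitude and filtered genes alone. Marker lists of 10 cell types were read beside the results. Sequences are from RefSeq GRCm38.p6 and positions from GENCODE vM21.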

Additional observations from a re-analysis of the deposited data

Results flagged for a closer look

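In groups of 4 livers, a library was singled out when its gap to the nearest other library was most of the range of its group. Of 60 member and group combinations tested, in 6 groups of 4, 2 stood out. Both were Sirt5, at 1.20 CPM in replicate 3 of control GRLKO at ZT12 and 6.59 CPM in replicate 4 of control WT at ZT16, where every other liver of the group was at 0. With the others at 0 any value above 0 stands out, so the rate of about 1 in 20 groups that chance gives for varying values does not apply to them. Rhythms differed between groups by limma for Nampt in GRLKO against WT on calorie restriction (adjusted p = 0.0341), and for Sirt7 (0.0425) and Nampt (0.000815) between the diets in WT. On calorie restriction, GRLKO livers all lay above WT at one time and all below at another for Sirt4, with log2 fold changes of 0.24 at ZT12 and -0.38 at ZT16. The same held for Nampt, with -0.33 at ZT8, -0.20 at ZT12, 0.38 at ZT16 and 0.45 at ZT20. Of all genes, 9.21% had such separations in both directions on this diet, and edgeR called neither gene at any of these times (Sirt4 0.359 and 0.165). The differences between these times were not tested one against another.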

How the results depend on the processing

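For log2 fold changes of members past the threshold, 136 of 160 alternatives stayed past it in the same direction and 24 fell short, with none of the 160 reversed. For rhythm calls of members, 97 of 126 alternatives stayed and 29 fell short. Of the other named genes, Nmrk1 reversed when WT livers of the day series at ZT12 stood in for the diet experiment (0.42). DESeq2 called 2 members with corticosterone in place of 0, 7 member and time combinations of genotype on calorie restriction in place of 3, and 2 on control diet in place of 1. A fit of all libraries of a diet gave 7 and 2 of these combinations, and replicate numbers as a block gave 0 on control diet. A cosinor F-test called 6 rhythmic members in WT on calorie restriction in place of 3 and 4 in GRLKO on control diet in place of 2. The shares of all genes called by DESeq2 and by the cosinor F-test are not given here. These counts are therefore not read as results about the members. With no filter on low counts, 1 member in place of 2 differed in rhythm between the diets. With log2 CPM Sirt4 passed there (limma adjusted p = 0.0444), and the alternatives ranged from 1 to 3 members. Leaving out single replicates gave 1 to 4 combinations on calorie restriction and 0 to 2 on control diet, 1 to 2 members in the control day average, 1 to 3 rhythmic members in WT and 0 to 1 in GRLKO on calorie restriction. It gave 0 to 0 members with a rhythm that differed between genotypes on calorie restriction, and 1 to 3 between diets. Over all genes on calorie restriction, rhythmic calls fell from 3874 to between 387 and 724 in WT. In GRLKO they fell from 3599 to between 297 and 394. Rhythm differences fell from 86 to between 5 and 20 between genotypes there, and from 3454 to between 2074 and 2920 between diets. Single-time calls fell from 2966 to between 1394 and 1923 on calorie restriction, and from 772 to between 318 and 638 on control diet. The control day average fell from 2389 to between 1790 and 2309 calls. Each of these fits holds fewer livers. For the other alternatives the cause was not tested. Replicate numbers did not pair libraries across groups: in 0 of 14 comparisons were all correlations over 0.1, and with them as a block the ZT12 diet, corticosterone and day average counts were 5, 0, 3 and 2. Over all member fold changes the sign turned in 101 of 2007 alternatives, none of them of a value past the threshold.

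Groups of 3 or 4 livers limit which differences pass, the zeros of Sirt5 could not be traced, and whole liver does not separate cell types. Each diet of the time series is its own set of libraries, so diet and set cannot be told apart. RNA levels alone were measured, with no NAD, protein or enzyme activity.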

Other observations

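Erythrocyte marker genes summed from 207 to 3863 CPM over the 90 libraries, with a median of 529 CPM and Hbb-bs on top, and the highest sum was in replicate 2 of GRLKO at ZT0 on calorie restriction. Exocrine pancreas genes, at or near 0 in most libraries (median 0.560 CPM), reached 740 CPM in replicate 2 of control WT at ZT16, beside the 1210 CPM in replicate 3 of WT at ZT12 on calorie restriction. Neutrophil genes stayed between 0 and 3.85 CPM, and stellate cell genes, with Reln on top, between 39.8 and 198 CPM.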
